A study of Mus musculus with 6 samples.

Results

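Homeobox genes that pattern the body and the brain along their axes were examined in the cerebellum of L1cam knockout and wild type mice at postnatal day 11. The genes were taken from the array annotation by symbol: Hox, Dlx, Msx, sine oculis-type (Six2 to Six6), Irx, Meis, Pbx, Pou, Otx, Emx and Gbx genes on probe sets that carry a single gene symbol. This gave 63 genes on 80 of the 10833 probe sets with a single symbol, among 12422 probe sets in all. Hox genes held 40 probe sets of 32 genes, Pou genes 11 of 8, Dlx 9 of 8, Six2 to Six6 8 of 5, Pbx 4 of 2, and Meis and Msx 3 of 3 each. Irx3 and Gbx2 had 1 probe set each, and no single-symbol probe set matched Otx or Emx. A further 3 probe sets name neighbouring Hox genes together and were left out, and 5 of the 80 belong to antisense or opposite-strand transcripts (Dlx1as, Dlx6os2 and Hoxa11os) of Dlx and Hox genes.

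The knockout group, called L1KO here, held 3 samples labelled male and without L1CAM (-/Y). The wild type group held 3 samples of siblings whose sex the labels do not give. Both are of strain 129S2/SvPasCrlf, described as congenic 129Sv, and each array holds cerebellar RNA at day 11. Each sample was hybridised to an Affymetrix Murine Genome U74Av2 array, and values are log2 RMA values made by the authors. Which part of L1cam is altered is not given in the sources used here.

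L1cam read 8.25, 8.01 and 7.91 in the L1KO arrays, against 8.79, 8.48 and 8.73 in the wild type arrays (difference -0.60 log2, SE 0.10, limma adjusted p = 0.841), and the groups did not overlap. Whether its probe set lies in the altered stretch of the gene is not stated, so it checks the labels only so far. Array medians ran from 8.87 to 8.94. L1KO 1 stood apart from the other arrays: the gap between its 3' and 5' Gapdh control probe sets was 0.67 log2, against -0.048 to 0.13 elsewhere, and the Y-linked Eif2s3y read 7.11, against at least 8.59. Uty, also Y-linked, read 6.67 there, against at least 7.32, while Xist, which marks an inactive X chromosome, read 6.31 to 6.41 in all 6 arrays. The Y-linked readings of L1KO 1 go against its male label, and the Xist reading does not. Tissue identity was visible in the brightest genes of cerebellar neurons, where Zic1 averaged 14.02 over the 6 arrays and Cbln1 13.10. Pcp2, a Purkinje cell protein, averaged 13.08 on its brightest probe set. Other cerebellar neuron genes read low, such as Pcp4 at 6.59 and Atoh1 at 8.70. Some spread and genotype results are given with and without L1KO 1, while correlations over arrays (r) use all 6 arrays only. In whole tissue, fewer cells of a type and less RNA per cell cannot be told apart.

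Hox genes lie in chromosomal clusters and are switched on in order along the hindbrain and spinal cord, so that low-numbered paralogs reach the hindbrain and high-numbered ones mark the trunk, the tail and the limbs. The cerebellum forms from the most anterior hindbrain, where Hox genes are silent and Gbx2 and the engrailed genes act. Dlx genes mark forebrain interneurons, Six3 and Six6 the anterior forebrain and eye, Msx genes dorsal and mesenchymal tissue, and Six2 nephron progenitors. Meis and Pbx proteins are cofactors of Hox proteins with wide roles in neurons, and Pou3f genes act in neural progenitors and glia. Readings of Hox, Dlx and brainstem genes therefore bear on where a cerebellar sample was dissected.

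The promoters that could be found for these genes held more CpG dinucleotides in the median than all promoters, though not in each case. The choice by symbol did not use this feature. Promoters were found for 44 of the 63 genes in a RefSeq-derived table of build GRCm38.p6. In the 250 bases before the start, the 48 promoters of these genes held a median of 13.5 CpG dinucleotides (range 2 to 35), against a median of 6 over all 32851 promoters. Hox promoters had a median of 13 and the others 15. Below are 4 of them, with CG dinucleotides in capitals: Meis1, Pou6f1 and Pou3f3, whose probe sets varied most between arrays among the members with a promoter in the table, and Hoxb8, whose probe set read highest of all members. They are read 5′ to 3′ on the strand of the gene.
Meis1, chr11:19018970-19019219, minus strand: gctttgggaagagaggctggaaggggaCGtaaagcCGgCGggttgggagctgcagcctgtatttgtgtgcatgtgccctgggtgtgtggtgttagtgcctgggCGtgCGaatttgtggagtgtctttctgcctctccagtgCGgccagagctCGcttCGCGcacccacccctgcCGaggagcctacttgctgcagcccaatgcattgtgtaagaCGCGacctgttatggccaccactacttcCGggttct
Pou6f1, chr15:100599985-100600234, minus strand: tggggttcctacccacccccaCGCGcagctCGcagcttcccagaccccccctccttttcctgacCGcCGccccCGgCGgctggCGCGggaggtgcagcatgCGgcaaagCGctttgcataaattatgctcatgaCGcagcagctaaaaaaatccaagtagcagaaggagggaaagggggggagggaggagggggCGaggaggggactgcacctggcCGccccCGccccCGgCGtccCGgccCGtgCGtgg
Pou3f3, chr1:42695518-42695767, plus strand: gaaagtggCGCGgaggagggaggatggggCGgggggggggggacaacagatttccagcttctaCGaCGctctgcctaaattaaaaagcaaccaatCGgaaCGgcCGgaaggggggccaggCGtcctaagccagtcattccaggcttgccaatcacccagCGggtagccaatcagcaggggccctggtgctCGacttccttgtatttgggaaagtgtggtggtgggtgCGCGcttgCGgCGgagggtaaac
Hoxb8, chr11:96281655-96281904, plus strand: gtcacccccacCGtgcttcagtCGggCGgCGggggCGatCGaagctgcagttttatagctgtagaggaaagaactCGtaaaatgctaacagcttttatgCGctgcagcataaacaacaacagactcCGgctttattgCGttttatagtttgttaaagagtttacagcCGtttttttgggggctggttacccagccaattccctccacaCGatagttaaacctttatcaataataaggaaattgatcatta

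These 4 stretches held 13, 20, 15 and 12 CpG dinucleotides. Letters for 4 motifs were searched on both strands of all promoters: the POU octamer ATGCAAAT, the MEIS motif TGACAG, the PBX-HOX motif TGATTNAT and the homeodomain core TAATTA. The motif TGACAG was found in 14.6% of members' promoters, against 15.9% of all promoters. The octamer was in none of the 48, against 1.6% of all. TGATTNAT was found in 2 of the 48 (Hoxa2 and Hoxd11), or 4.17%, against 2.82%, and TAATTA in 3, or 6.25%, against 4.84%. None of the 4 printed promoters held any of these letters.

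RMA values carry no detection call, so 95 genes restricted to organs outside the brain (liver, pancreas, muscle, heart, gonads, skin, kidney, lung, gut, stomach, eye, lymphocytes, mammary gland and pituitary) served as a guide to the readings of genes not known from cerebellum. A total of 105 probe sets covered 85 of them. They read from 5.59 (mean of 6 arrays) to 10.76, with a median of 7.63 and a 90th percentile of 9.65. The 90th percentile was used as a cut, not as a detection limit, and by its making 9 of these 105 lay above it in all 6 arrays.

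Of the 80 homeobox probe sets, 69 lay at or below the cut in every array, 4 straddled it and 7 lay above it in all 6 arrays. The share above was 8.75%, against 31.9% of all probe sets. By contrast 19 of 26 probe sets for cerebellar neuron genes were above. Of the rest, 1 straddled the cut and 6 lay at or below it. Among those 6 were Pcp4 (6.59), Atoh1 (8.70) and both probe sets of Rora (7.34 and 9.07). The members ran from 5.64 to 11.53 with a median of 8.06, against 7.63 for genes of other organs and 10.95 for cerebellar neurons.

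**Figure D1:**
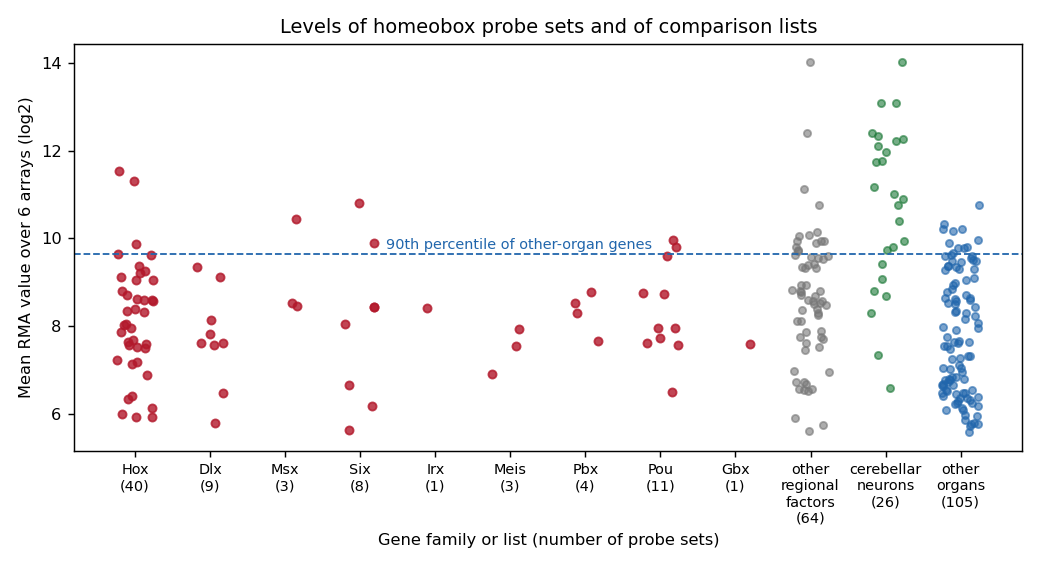
Mean RMA value (log2) over the 6 arrays, with 1 point per probe set, for the homeobox families (red), other regional transcription factors (grey), cerebellar neuron genes (green) and genes of other organs (blue); the dashed line is the 90th percentile of the last, 9.65. All homeobox families overlap the range of the genes of other organs, and 7 of 80 probe sets lie above the line in every array, against 19 of 26 for cerebellar neurons.

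The highest member was a Hoxb8 probe set, for a Hox gene of the trunk. It read 11.51, 11.54 and 11.52 in the L1KO arrays, against 11.59, 11.43 and 11.60 in the wild type arrays. The other Hoxb8 probe set read 7.14, 7.10 and 7.10 in L1KO, against 7.22, 7.10 and 7.21 in wild type. The probe sets of this gene differed by 4.39 log2 in mean, while neither separated the groups.

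Hoxa4 had the widest gap, 5.39 log2 between its lowest and highest of 4 probe sets. The highest read 11.13, 11.36 and 11.33 in L1KO, against 11.33, 11.35 and 11.41 in wild type. The other 3 averaged 9.65, 6.34 and 5.93. The highest reading in each of these genes came from a probe set whose suffix (_r_at) marks probes chosen under relaxed rules, but the Hoxa4 probe set at 6.34 has that suffix too.

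Across the 12 genes with several probe sets (29 in all), the gap between the lowest and the highest mean had a median of 1.77 log2, was above 2 for 5 genes and under 0.5 for 2. Pou6f1 and Six4 differed by 2.20 and 2.81, and the Pbx3 probe sets by 1.12. The 2 probe sets of Hoxd8 differed by only 0.33, and those of Dlx6os2 by 0.038. A level in the lower range therefore placed a probe set more than it placed a gene.

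**Figure D2:**
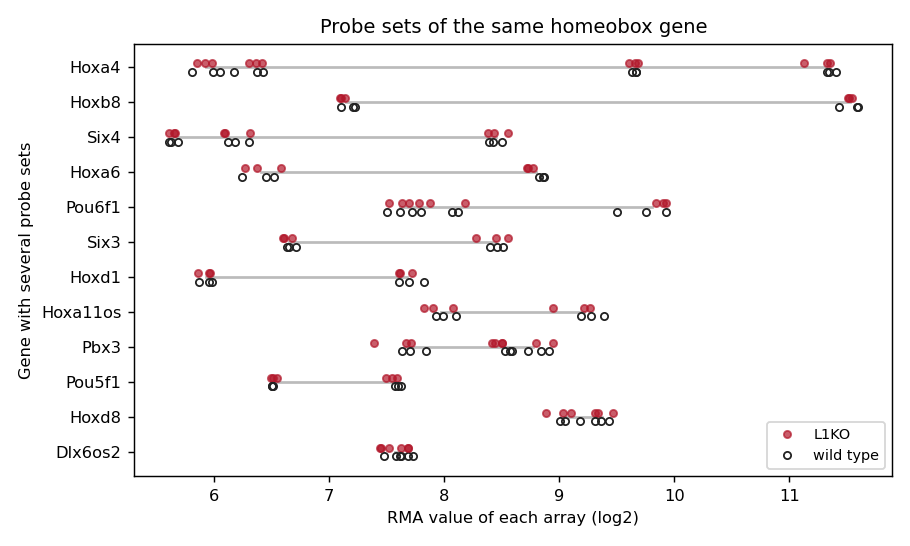
RMA values (log2) of every array for the 12 homeobox genes with several probe sets, with L1KO arrays filled and above, wild type arrays open and below, and a grey line between the lowest and highest probe set means. Probe sets of Hoxa4 span 5.39 log2 and those of Hoxb8 4.39, far more than the arrays differ.

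Msx1, Six2, Six5, Pou3f2 and Hoxb6 were the other 5 members above the cut in all arrays, each on its single probe set. Six2, a factor of nephron progenitors, read 10.78, 10.88 and 10.70 in L1KO, against 10.89, 10.72 and 10.85 in wild type. Msx1, a factor of facial and limb mesenchyme, read 10.46, 10.51 and 10.25 in L1KO, against 10.53, 10.40 and 10.44 in wild type. Both genotypes overlapped, and L1KO 3 was the lowest array for each.

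Pou3f2 (Brn2), a factor of neural progenitors, read 9.93, 9.99 and 9.81 in L1KO, against 10.03, 9.94 and 10.02 in wild type. Hoxb6 read 9.82, 9.97 and 9.82 in L1KO, against 9.99, 9.83 and 9.86 in wild type. Six5, a factor of muscle and lens, read 9.81, 9.91 and 9.86 in L1KO, against 9.97, 9.95 and 9.93 in wild type. Only Six5 had groups that did not overlap, with 9.91 in the highest L1KO array and 9.93 in the lowest wild type array.

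The 4 straddling probe sets were Hoxb5 (mean 9.62), Pou2f3 (9.59), a Hoxa4 probe set (9.65) and a Pou6f1 probe set (9.81). The nearest members under the cut in every array were Hoxd8 at 9.37 and Dlx3 at 9.34, and the nearest above were Hoxb6 at 9.88 and Six5 at 9.90. Means near the line thus ran from 9.34 to 9.90, with the 4 straddling probe sets in between.

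Hox probe sets did not order by body position. Paralogs 1 to 5, those that reach the hindbrain, had 15 probe sets with a median of 7.87. Paralogs 6 to 8 had 11 with a median of 8.80, and paralogs 9 to 13, of the posterior body, had 14 with a median of 8.18. Hoxa2, the most anterior Hox gene of the hindbrain, averaged 8.05 and Hoxb1, which marks a single hindbrain segment in the embryo, 8.34, while Hoxa13 and Hoxd13 of the distal limb averaged 8.60 and 8.40. By cluster the medians were 7.92 for Hoxa, 8.47 for Hoxb, 7.60 for Hoxc and 8.59 for Hoxd.

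The Dlx family lay wholly below the cut, from Dlx2 at 5.78 to Dlx3 at 9.34. Dlx3, a gene of skin and placenta, read 9.34, 9.36 and 9.24 in L1KO, against 9.49, 9.27 and 9.33 in wild type. Dlx1, Dlx2, Dlx5 and Dlx6, the members of forebrain interneurons, averaged 7.61, 5.78, 6.48 and 7.82, below the placental and epithelial Dlx3 and Dlx4 (9.11). The gap from Dlx2 to Dlx3 was smaller than the 5.39 log2 between probe sets of Hoxa4 alone.

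Six3 averaged 6.65 and 8.44 on its probe sets, Six6 8.06 and Six4 between 5.64 and 8.45. Gbx2, which positions the boundary between midbrain and hindbrain in the embryo, read 7.52, 7.62 and 7.63 in L1KO, against 7.744, 7.501 and 7.488 in wild type. Its mean of 7.59 lay close to the median of the genes of other organs. Pou5f1 (Oct4), a gene of pluripotent cells that serves as a negative member, averaged 6.51 and 7.57.

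Level thus placed probe sets rather than genes, and a second measure was looked at after the values had been seen. Genes of other organs moved together from array to array: their median deviation from the 6-array mean was -0.038, 0.044 and -0.086 in L1KO 1, 2 and 3, against 0.061, -0.013 and 0.020 in wild type 1, 2 and 3. The Hox members had nearly the same course, with -0.043, 0.033 and -0.062 in L1KO, against 0.067, -0.040 and 0.019 in wild type. The median over all probe sets had the same signs and smaller values, with -0.011, 0.012 and -0.028 in L1KO, against 0.024, -0.0015 and 0.0080 in wild type. Part of the course was thus shared by the array as a whole. L1KO 3 was the lowest array for 50% of the members, for 55.2% of the probe sets of other organs and for 29.2% of all probe sets.

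Dlx members, Six2 to Six6 and Pou members moved alike, with medians of -0.098, -0.076 and -0.077 in L1KO 3 and of 0.054, 0.070 and 0.108 in wild type 1. Lists for cells of the cerebellum moved otherwise: cerebellar neurons had -0.074 in wild type 1 and 0.023 in L1KO 3. Oligodendrocyte genes had -0.25 in L1KO 1 and 0.17 in wild type 3. Ttr, the main transcript of the choroid plexus, read 12.56, 12.43 and 10.20 in L1KO, against 9.71, 12.55 and 12.13 in wild type. Of the 12 choroid plexus probe sets, those of Kl and Slc4a5 were also lowest in L1KO 3 and wild type 1, with 7.53 and 6.37 in L1KO 3 and 7.60 and 6.69 in wild type 1, against at least 8.14 and 7.04 in the other arrays. The other 9, of Aqp1, Cldn2, Folr1, Foxj1, Igf2 and Igfbp2, ranged over 0.119 to 0.469 log2. Among them a probe set each of Aqp1, Folr1 and Igfbp2 was likewise lowest in L1KO 3 and wild type 1. They read 8.14, 9.38 and 10.73 in L1KO 3 and 8.21, 9.37 and 10.59 in wild type 1, against at least 8.41, 9.59 and 10.82 elsewhere. The remaining probe sets did not have both arrays lowest. The list's median deviation was -0.161 in L1KO 3 and -0.098 in wild type 1. Whether the amount of choroid plexus in a sample had a part in these values was not tested. For comparison, the widest range of any Hox or Dlx probe set, that of a Hoxa11os probe set, was 0.442.

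**Figure D3:**
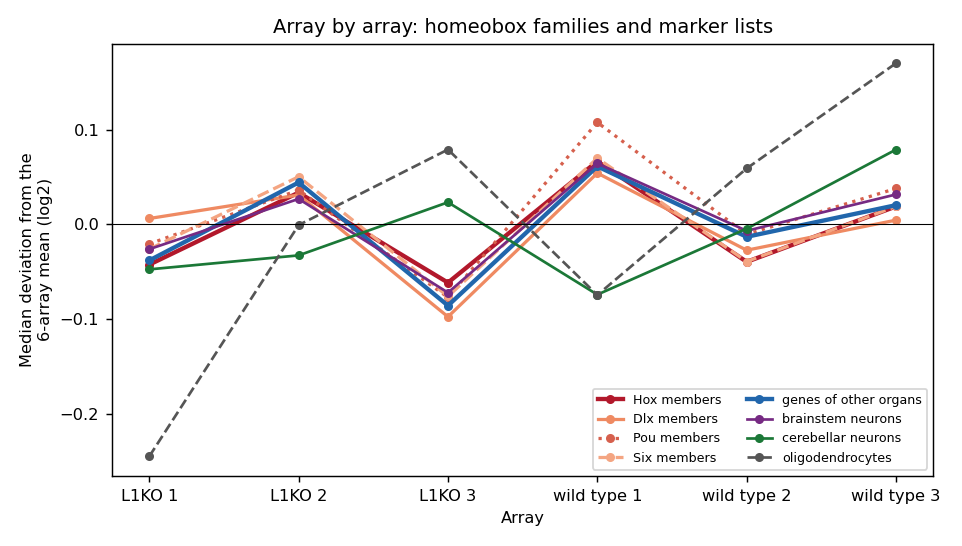
Median deviation of each array from the 6-array mean (log2), by array, for homeobox families, genes of other organs, brainstem neurons, cerebellar neurons and oligodendrocytes, with L1KO arrays on the left. Hox, Dlx, Six2 to Six6 and Pou members follow the course of the genes of other organs (0.061 in wild type 1 and -0.086 in L1KO 3), while oligodendrocyte and cerebellar neuron genes take other courses.

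For each probe set the correlation of its 6 values with that course was computed, as a description, since all probe sets share the arrays and their normalization. The median r was 0.71 over the members, 0.68 over genes of other organs (each left out of the course it was compared with), 0.27 over all probe sets and -0.074 over cerebellar neuron genes. Hox members had a median of 0.71, with paralogs 1 to 5 at 0.66 and paralogs 9 to 13 at 0.79. Dlx members had 0.74. A negative r was found for 10 of the 80 members (12.5%), against 38.7% of all probe sets.

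The same held for 5 of the 7 probe sets above the cut, where r was 0.94 for Pou3f2, 0.90 for Six2, 0.89 for Msx1, 0.87 for Hoxb6 and 0.70 for Six5. The bright Hoxb8 and Hoxa4 probe sets had 0.51 and 0.40. Levels above most genes of other organs thus went together with the array course of those genes.

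Brainstem neuron genes, which stand for tissue that adjoins the cerebellum, took a similar array course. Their 16 probe sets had a median r of 0.72 and medians of -0.072 in L1KO 3 and 0.064 in wild type 1, and 4 were above the cut. Those above were both probe sets of Slc6a2 (10.65 and 9.995, r of 0.55 and 0.84) and a probe set each of Sncg (10.36, r of 0.72) and Slc6a4 (9.86, r of 0.68). The other probe sets of Sncg and Slc6a4 averaged 7.59 and 7.93. Below the cut, Phox2a and Isl1, transcription factors of brainstem motor neurons, averaged 8.93 and 6.53 with r of 0.93 and 0.95. Th, the enzyme of catecholamine synthesis, averaged 9.05 with r of 0.87, while Lmx1b averaged 8.95 with r of 0.099, the lowest of the list. Forebrain genes had a median r of 0.70 over 19 probe sets, with 3 above the cut, of which Penk averaged 10.52 on its brightest probe set with r of -0.29, against 8.85 and 5.75 on the others.

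The spread over the 6 arrays was small for most members, with a median SD of 0.091 against 0.092 for genes of other organs. The 90th percentile of SD in the latter was 0.141, and 7 members lay above it (8.75%, against 13.0% of all probe sets). These were Meis1, 2 probe sets of Pbx3, 2 of Pou6f1, Pou3f3 and a Hoxa11os probe set. Without L1KO 1 the count was again 7, with Hoxd11 in and Pou3f3 out. Of the 7 over all arrays only Meis1, both Pbx3 probe sets and a Pou6f1 probe set also had a negative r. For Meis1 the array L1KO 1 read highest, at 8.38, against 7.64 to 8.02 in the others. Whether its r stays negative without that array was not computed. That joint count of 4 in 80 compares with 2 of 105 for genes of other organs and with 8.49% of all probe sets, so it is below the share of the array as a whole.

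**Figure D4:**
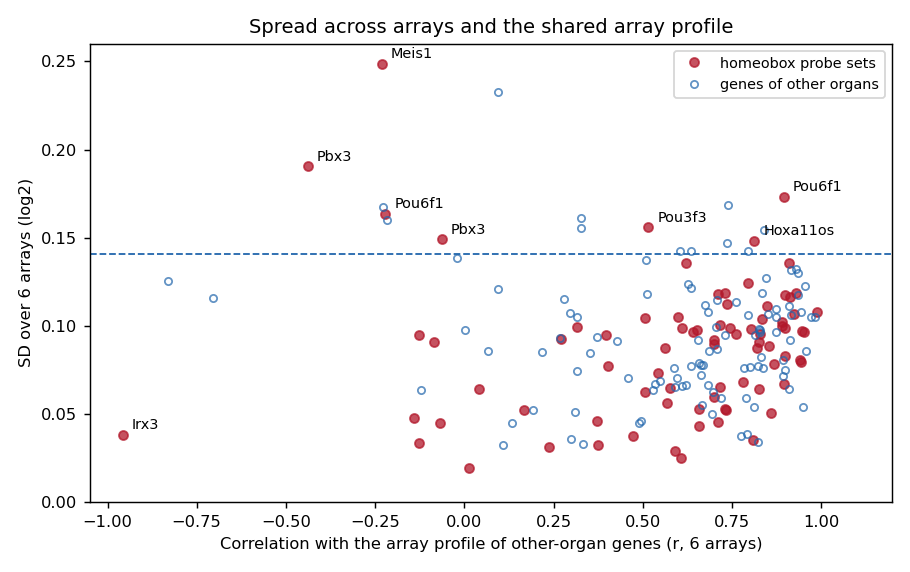
SD over the 6 arrays (log2) against the correlation with the array course of genes of other organs, with 1 point per probe set, for homeobox probe sets (filled red) and genes of other organs (open blue); the dashed line is the 90th percentile of SD of the latter, 0.141. Most homeobox probe sets lie with those genes at the lower right. Meis1, Pbx3 and a Pou6f1 probe set lie above the line with a negative correlation over all 6 arrays.

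Meis1, a cofactor of Hox proteins known in cerebellar granule cells, was the most variable member, with an SD of 0.25. It read 8.38, 7.64 and 7.82 in L1KO, against 8.02, 7.91 and 7.90 in wild type. The extremes were both knockout arrays, and the genotypes differed by 0.005 (95% interval -0.34 to 0.35). Without L1KO 1, the array with the wide Gapdh gap, the difference was -0.21 and the SD 0.142, and no call resulted. Its relatives Meis2 and Meis3 averaged 6.91 and 7.55, with SDs of 0.064 and 0.031.

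Pbx3, a partner of Meis and Hox proteins, had its lowest array in L1KO 2 on all 3 probe sets. The most variable read 8.94, 8.42 and 8.80 in L1KO, against 8.84, 8.91 and 8.73 in wild type. A second read 7.71, 7.39 and 7.67 in L1KO, against 7.84, 7.63 and 7.70 in wild type. Both had L1KO 2 lowest and differed in the order of the rest. The third spanned only 0.145 log2, and there the groups did not overlap. Pbx2 averaged 8.29 and followed the other-organ course (r of 0.64).

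Pou6f1, a POU factor of the nervous system, gave different pictures on its 3 probe sets. The brightest read 9.93, 9.84 and 9.91 in L1KO, against 9.92, 9.75 and 9.50 in wild type. Wild type 3 was low there and the rest close together, with r of -0.22. The other 2 averaged 7.97 and 7.61 and had r of 0.89 and 0.56.

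Irx3, of the Iroquois family, had the most negative r of all members, -0.96, on a narrow range. It read 8.45, 8.38 and 8.45 in L1KO, against 8.35, 8.41 and 8.40 in wild type. The lowest and highest arrays differed by 0.10 log2, so the inverse course concerns very small differences.

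The other regional transcription factors, 64 probe sets of 58 genes, showed what members of this kind look like when the cerebellum uses them. En2 and Zic1, which pattern the cerebellum and act in granule cells, averaged 12.42 and 14.02, with r of -0.21 and -0.58. Pax6 of granule cells averaged 10.76 with r of -0.74, and Cux1 11.13 with r of -0.028 on its brighter probe set, while its other probe set averaged 7.62 with r of 0.88. In all 13 of the 64 were above the cut. Among these Alx4 of the limb, Pitx1 of the hindlimb and pituitary and Pitx3 of midbrain dopamine neurons averaged 10.15, 9.80 and 10.05, with r of 0.91, 0.87 and 0.83. En1 and Lhx1, which are cerebellar genes, averaged 9.74 and 9.94 with r of 0.75 and 0.72. Zic2, also cerebellar, averaged 9.94 with r of 0.89 on its brighter probe set and 8.80 with r of -0.018 on the other. A high r was thus also found for genes that the cerebellum is known to use.

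Between genotypes, no homeobox probe set passed limma with Benjamini-Hochberg adjustment over 12422 probe sets at 0.05, as on the array as a whole (0% called). At an unadjusted p under 0.05 there was 1 of 80, against 5.08% of all probe sets. The smallest adjusted p among members was 0.897 in limma. The 95% intervals were narrow, with a median half-width of 0.162 log2, and for all 80 members they lay within a 1.5-fold change in either direction. They concern the readings, of which 69 lay at or below the level cut in every array, and need not bound a change of the transcript. A total of 68 differed by less than 0.1 log2.

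Pou3f3 (Brn1), a POU factor of neural progenitors, had the smallest p. It read 7.71, 7.90 and 7.92 in the L1KO arrays, against 8.11, 8.01 and 8.14 in the wild type arrays, and the groups did not overlap. L1KO minus wild type came to -0.24 log2 with an SE of 0.074 (95% interval -0.40 to -0.074, limma adjusted p = 0.897), or 1.18-fold higher in wild type. Over the 12 other settings it lay between -0.29 and -0.17, with adjusted p from 0.424 to 1. The value of -0.17 came without L1KO 1, the array that read lowest. Pou3f4 (Brn4) read 7.77, 7.68 and 7.58 in L1KO, against 7.88, 7.82 and 7.72 in wild type, a difference of -0.13 with overlapping groups. Pou3f2 differed by -0.084 and Pou3f1 of myelinating glia by -0.034, and none passed.

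Hoxb3, a Hox gene of the caudal hindbrain, read 8.25, 8.34 and 8.20 in L1KO, against 8.37, 8.42 and 8.42 in wild type. It differed by -0.14 (95% interval -0.28 to 0.0013, limma adjusted p = 0.922). Hoxa6 read 8.73, 8.77 and 8.72 on its brighter probe set in L1KO, against 8.83, 8.87 and 8.86 in wild type. Hoxd12, a limb gene, read 7.19, 7.19 and 7.13 in L1KO, against 7.39, 7.19 and 7.31 in wild type. In these 3 the groups did not overlap, by less than 0.1 log2 each, and the dimmer Hoxa6 probe set differed by only 0.003.

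In the other direction the brightest Pou6f1 probe set differed by 0.16 (95% interval -0.052 to 0.38). That value rests on single arrays: it was 0.051 without wild type 3 and 0.26 without wild type 1. Hoxc4 read 7.72, 7.66 and 7.53 in L1KO, against 7.62, 7.46 and 7.59 in wild type, a difference of 0.083. Hoxa2 read 7.99, 8.23 and 8.03 in L1KO, against 8.11, 7.96 and 8.02 in wild type, a difference of 0.051. All 3 overlapped between genotypes. Pbx2 read 8.35, 8.41 and 8.19 in L1KO, against 8.37, 8.18 and 8.25 in wild type, a difference of 0.049. Hoxb1 read 8.30, 8.40 and 8.39 in L1KO, against 8.32, 8.35 and 8.29 in wild type, a difference of 0.045. These groups overlapped too. Over the 12 other settings Hoxa2 lay between -0.022 and 0.10, Pbx2 between 0.0021 and 0.11, Hoxb1 between 0.024 and 0.095 and Hoxc4 between 0.035 and 0.14.

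**Figure D5:**
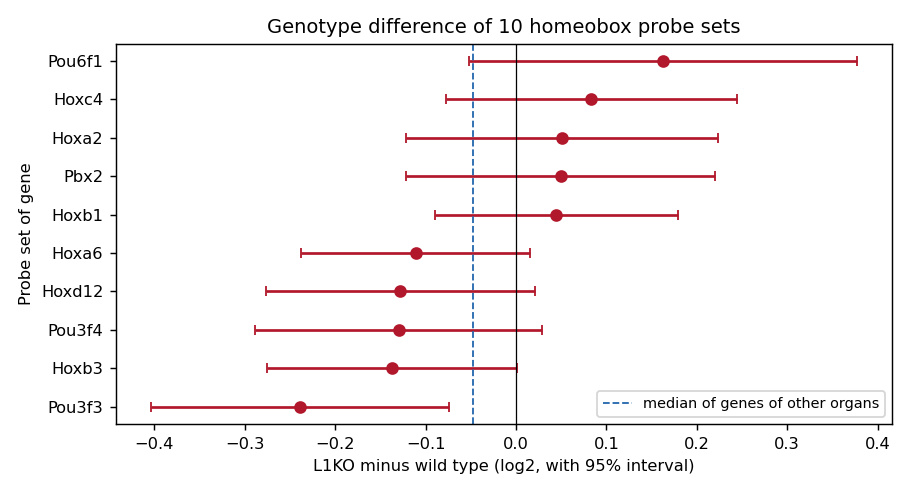
Difference of L1KO minus wild type (log2) with its 95% interval from limma, for the 5 homeobox probe sets with the smallest unadjusted p in each direction; the dashed line is the median difference of genes of other organs, -0.047. Only the interval of Pou3f3 leaves out 0, and none passed after adjustment.

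Groups did not overlap for 6 members, all lower in L1KO (Hoxa6, Hoxb3, Hoxd12, Pbx3, Pou3f3 and Six5), or 6 of 80 against 6.63% of all probe sets in that direction. None was higher without overlap, against 3.76% of all. The knockout mean was lower for 61 members and higher for 19, with a median difference of -0.042, against 62.3% lower, 37.7% higher and a median of -0.023 over all probe sets. Genes of other organs had 80 of 105 lower and a median of -0.047. After quantile normalization the members split into 29 higher and 51 lower, after median centring into 33 and 47, and with arrays centred on the genes of other organs, a setting chosen after seeing the data, into 44 and 36 with a median of 0.0084. Hox members alone had a median of -0.047 as deposited and 0.0035 in that last setting. Without L1KO 1 the median over all members was -0.032.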

How the data were processed

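Cerebellar RNA of 6 samples was read on 6 arrays. The authors deposited log2 values summarised per probe set with RMA, the method named in the submitters' processing notes; neither its version nor its settings are recorded in what was read here. Of 12488 probe sets 66 array controls were set aside, and no filter on low values was used. Gene symbols came from the platform annotation, and all 80 member identifiers were found in RefSeq (GRCm38.p6) with 0 symbols changed. Arrays have no depth, and 3 per group limit the precision. Nothing says more of the replicates than that each is a separate sample, so p-values measure the spread between these samples.

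Genotype was tested with limma 3.58.1 in R 4.3.3 (lmFit, eBayes, two-sided), with Benjamini-Hochberg adjustment over 12422 probe sets at 0.05. In a simulation with 3 arrays per group over 12422 probe sets it called 97 of 100 changed 1.5-fold and 100 of 100 changed 2-fold, with 13 false calls. The simulated noise was independent between probe sets, and the many changed probe sets eased the adjustment. These counts therefore do not give the power in the deposited values. There L1cam, 1.52-fold higher in wild type, had a limma adjusted p of 0.841. Levels, spreads and array courses are descriptions with no test. Members, gene lists and comparisons were chosen with earlier results of these data known; the spread, the array course and centring on genes of other organs were chosen after seeing the values. Alternatives were other scalings and variance settings, weights per array, a block for the replicate number, a filter on mean level, a threshold of 0.1, leaving out arrays or probe sets open to cross-hybridization, averaging per gene, and other level cuts. Values per array are given for the brightest member of each family, members above the cut, and the 5 smallest unadjusted p in each direction. Other members shown by array were picked for their spread or for a second probe set.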

Additional observations from a re-analysis of the deposited data

How the results depend on the processing

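No member was called under any of the settings tried for the genotype test of members. Over all probe sets the count stayed at 0, with 395 to 1162 at an unadjusted p under 0.05, except that leaving out L1KO 3 gave 1, so that the count ran from 0 to 1 when single arrays were left out. The median difference of members ran from -0.076 without L1KO 2 to -0.0080 without wild type 1, and was -0.074 without wild type 2 and -0.014 without L1KO 3. It was -0.013 after quantile normalization, -0.010 after median centring and 0.0084 centred on genes of other organs, a change of sign. With the replicate block it was -0.042 and the counts were 0. The deviations of equally numbered arrays from their group means correlated at 0.16, -0.32 and 0.17, and the block changed no call. With 3 arrays per group these values cannot tell whether equally numbered samples were paired. The number of members above the level cut was 7, and 14 with the 75th percentile of genes of other organs as the cut, 4 with the 95th and 27 with the 40th percentile of all probe sets. It was 8 without wild type 3 and 9 when only the mean of the 6 arrays had to pass. Without probe sets open to cross-hybridization it was 5, since the bright Hoxb8 and Hoxa4 probe sets dropped out. SD is a different measure: 7 members lay above its cut, and none of them was among the 7 above the level cut. Without L1KO 1 the SD count was again 7, with Hoxd11 in place of Pou3f3. Quantile normalization, median centring and leaving out any other single array left the level count at 7. Median Hox deviations per array kept their signs under both of these scalings. Signal close to that of genes of other organs limits what a genotype difference could show.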
